A study of Mus musculus with 4 samples.

Results

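Loci of 8 genes of the resting and central T cell program were examined in JunB, BATF and IRF4 ChIP-seq of activated regulatory T (Treg) cells: *Bach2*, *Lef1*, *Tcf7*, *Satb1*, *Foxo1*, *Klf2*, *Il7r* and *S1pr1*. The 8 genes, of 22380 protein-coding genes in the annotation, were chosen by name, with earlier results of these data known. A peak was assigned to a gene when its centre lay within 50 kb of any annotated transcription start site (TSS) of that gene. By this rule the 8 loci held 80 of 29659 JunB peaks, 41 of 13570 BATF peaks, 64 of 31093 IRF4 peaks of *Junb*-sufficient cells and 57 of 29033 IRF4 peaks of *Junb*-deficient cells, 242 peaks in all over 1163 kb of summed window. No peak lay in the windows of more than 1 of the 8 genes.

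The cells were mouse Treg cells of strain C57BL/6, activated in vitro with anti-CD3 and anti-CD28 antibodies and IL-2 and taken at 60 h. In *Junb*-sufficient cells JunB, BATF and IRF4 were each precipitated, and in *Junb*-deficient cells IRF4 alone, with 1 library for each of the 4 conditions. The sample labels give the genotypes as Foxp3cre JUNB+/+ and Foxp3cre JUNBFl/Fl, with Cre driven by the *Foxp3* promoter of Treg cells, while the study's methods name *Junb* fl/fl cells without Cre and with *Cd4*-driven Cre, which acts in T cells in general. Which of the genotypes was used could not be told from the peak lists. An antibody field in the labels also exchanges BATF and IRF4 for the *Junb*-sufficient cells, and the libraries are named here by their titles and by the study's own list. The study states that its ChIP-seq was repeated, but the lists analysed here come from 1 library per condition, without replicates, so no difference between genotypes was tested, and every interval given is an exact binomial (Clopper-Pearson) 95% interval that covers counting error over peaks only. The lists hold binding sites and no expression, so neither the identity of the cells nor the level of any of the 8 transcripts could be read from them.

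JunB is an AP-1 protein that binds DNA as a dimer, and BATF is one of its partners in lymphocytes. BATF-JUN dimers recruit IRF4 to composite elements in which an AP-1 part and an IRF part lie side by side (AICEs), and these complexes act in activated and effector T cells. The 8 genes belong to the opposite state. BACH2 represses effector genes, LEF1 and TCF-1 (encoded by *Tcf7*) are HMG-box factors of naive and memory cells, SATB1 organizes chromatin in T cells, and FOXO1 drives *Klf2*, *Il7r* and other genes of quiescent cells. KLF2 in turn activates *S1pr1*, which encodes the receptor by which T cells leave lymphoid organs, and *Il7r* encodes the alpha chain of the receptor for the survival cytokine IL-7.

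Each member except *Satb1* held at least 1 site where a JunB peak overlapped a peak of BATF and one of IRF4, called a triple site here. The DNA reaching 100 bases to either side of the JunB centre of the triple site that stood nearest the beginning of the IRF4 list is printed for each of these 7 genes, to show the DNA at which all 3 factors were found. Sequences were read from the plus strand of NCBIM37 (mm9), 5′ to 3′, and capitals mark a match to the AP-1 motif TGAGTCA on either strand, to an AICE (GAAA directly before TGANTCA, or TTTC 4 bases before TGANTCA, on either strand) or to an ISRE-like pair (GAAA 2 bases before another GAAA, on either strand), the IRF motif without AP-1. AP-1 and AICE matches can overlap, since an AICE contains an AP-1-like part.
*Bach2*, chr4:32675332-32675532, intergenic: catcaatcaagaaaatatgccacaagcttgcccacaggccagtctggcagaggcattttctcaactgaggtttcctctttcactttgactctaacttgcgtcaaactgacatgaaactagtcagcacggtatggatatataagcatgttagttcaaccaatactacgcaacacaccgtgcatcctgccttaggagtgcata
*Lef1*, chr3:130857551-130857751, intron: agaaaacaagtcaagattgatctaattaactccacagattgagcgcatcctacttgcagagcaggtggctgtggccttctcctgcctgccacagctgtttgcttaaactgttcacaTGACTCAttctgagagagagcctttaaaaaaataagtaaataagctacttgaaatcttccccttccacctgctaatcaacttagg
*Tcf7*, chr11:52138054-52138254, intergenic: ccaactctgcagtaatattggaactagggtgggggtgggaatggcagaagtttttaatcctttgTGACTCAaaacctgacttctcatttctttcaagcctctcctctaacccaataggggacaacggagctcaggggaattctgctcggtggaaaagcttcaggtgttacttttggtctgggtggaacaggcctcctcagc
*Foxo1*, chr3:52075431-52075631, intron: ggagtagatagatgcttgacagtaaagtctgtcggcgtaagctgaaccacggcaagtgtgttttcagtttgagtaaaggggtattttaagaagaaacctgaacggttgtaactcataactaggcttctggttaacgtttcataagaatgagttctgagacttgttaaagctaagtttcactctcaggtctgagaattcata
*Klf2*, chr8:74855124-74855324, intergenic: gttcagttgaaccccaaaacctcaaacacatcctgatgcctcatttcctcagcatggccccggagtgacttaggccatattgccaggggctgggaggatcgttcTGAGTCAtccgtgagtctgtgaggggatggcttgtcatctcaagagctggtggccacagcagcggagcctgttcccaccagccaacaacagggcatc
*Il7r*, chr15:9499882-9500082, intergenic: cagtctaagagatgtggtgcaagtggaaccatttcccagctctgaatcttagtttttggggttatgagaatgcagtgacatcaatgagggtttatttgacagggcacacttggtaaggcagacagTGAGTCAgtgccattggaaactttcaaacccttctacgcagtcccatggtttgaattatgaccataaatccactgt
*S1pr1*, chr3:115464308-115464508, intergenic: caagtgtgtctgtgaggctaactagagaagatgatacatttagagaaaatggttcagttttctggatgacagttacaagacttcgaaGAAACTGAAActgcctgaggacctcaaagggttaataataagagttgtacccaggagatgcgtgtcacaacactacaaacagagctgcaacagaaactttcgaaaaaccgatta
The *Lef1*, *Tcf7*, *Klf2* and *Il7r* windows held the AP-1 motif, the *S1pr1* window held an ISRE-like pair, and the *Bach2* and *Foxo1* windows held none of the searched letters.

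AICE matches were found in the windows of 4 of the 80 JunB peaks, 3 at *Il7r* and 1 at *S1pr1*. At triple sites 3 of 34 JunB peaks held one, beside 5.49% of all such peaks. With neither partner it was 1 of 36 (2.78%, interval 0.0703 to 14.5), beside 1.07%, and with 1 partner 0 of 10, beside 2.27%. The 4 windows are printed because they carry the composite element, and they were chosen after the matches were seen. The first lies in an intron of *Il7r*, 278 bp downstream of its TSS, and its JunB peak, at place 4561 of the JunB list, overlapped no BATF or IRF4 peak. The other 3 lie at triple sites in intergenic DNA.
*Il7r*, 0.3 kb downstream, chr15:9459253-9459453: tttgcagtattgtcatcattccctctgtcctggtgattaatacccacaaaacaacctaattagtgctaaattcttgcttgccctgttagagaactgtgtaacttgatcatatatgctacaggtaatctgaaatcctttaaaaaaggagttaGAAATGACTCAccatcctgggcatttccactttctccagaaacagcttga
*Il7r*, 17.7 kb upstream, chr15:9477212-9477412: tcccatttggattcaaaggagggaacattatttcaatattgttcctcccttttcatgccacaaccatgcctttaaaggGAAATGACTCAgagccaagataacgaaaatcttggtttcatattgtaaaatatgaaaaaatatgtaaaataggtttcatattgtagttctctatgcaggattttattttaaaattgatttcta
*Il7r*, 32.8 kb upstream, chr15:9492319-9492519: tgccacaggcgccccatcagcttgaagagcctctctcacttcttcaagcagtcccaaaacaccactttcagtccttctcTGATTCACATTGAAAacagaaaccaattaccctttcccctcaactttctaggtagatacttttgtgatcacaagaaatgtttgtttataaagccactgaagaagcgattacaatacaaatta
*S1pr1*, 39.0 kb downstream, chr3:115378897-115379097: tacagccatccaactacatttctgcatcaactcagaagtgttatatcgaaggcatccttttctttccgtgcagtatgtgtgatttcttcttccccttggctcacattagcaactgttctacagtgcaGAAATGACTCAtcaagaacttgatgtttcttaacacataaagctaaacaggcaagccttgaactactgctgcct

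Over the 34 JunB peaks at triple sites of the 8 loci, 16 windows (47.1%, interval 29.8 to 64.9) held AP-1, beside 42.0% of all 8921 such JunB peaks. An AICE match stood in 3 of the 34 (8.82%, interval 1.86 to 23.7), beside 5.49% over all, and an ISRE-like pair in 2 (5.88%, interval 0.720 to 19.7), beside 9.18%. All 3 intervals contained the share over all peaks. Among the 36 JunB peaks at the loci that overlapped neither BATF nor IRF4, AP-1 was found in 12 (33.3%, interval 18.6 to 51.0), beside 12.4% of all 16111 such peaks. These 36 peaks stood higher in the JunB list than others of their kind (median at 34.5% of the list, beside 63.6%). All such peaks at like places in the list would give 5.98 of 36 with AP-1 (16.6%). Peaks of the same gene are not independent, and this difference was not tested. A peak counted as without partners can also lie close beside an IRF4 peak. At *Bach2*, a JunB peak with AP-1 began at 32492636, just past an IRF4 peak that ended at 32492634. Motif matches are descriptions of these windows and not sites of binding.

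JunB, BATF and IRF4 peaks were found at all 8 genes, in every library. Over all protein-coding genes, 64.8% had a JunB peak within 50 kb of a TSS, 48.9% a BATF peak, 74.0% an IRF4 peak of *Junb*-sufficient cells, 73.3% an IRF4 peak of *Junb*-deficient cells and 42.7% a peak of every library. To allow for the number of start sites, which widens the window, peaks were also counted per 100 kb of window. The median gene had 1.00 JunB peak, 0 BATF peaks, 2.00 IRF4 peaks and 2.00 IRF4 peaks of *Junb*-deficient cells per 100 kb. *Il7r* had 12 JunB peaks per 100 kb (99.7th percentile of genes), *Bach2* had 9.55 (99.4th), *Foxo1* had 8.00 (98.7th) and *S1pr1* had 7.81 (98.6th). *Tcf7* had 5.94 (96.6th), *Klf2* had 5.00 (94.8th) and *Lef1* had 3.91 (89.7th). *Lef1* stood at the 82.7th percentile for BATF and the 77.8th for IRF4. The lowest was *Satb1*, with 1.05 JunB peaks (61.9th percentile), 0.523 BATF peaks and 1.57 IRF4 peaks per 100 kb, below the median gene for IRF4. *Foxo1* stood high for JunB only, with 1.00 BATF peak (66.8th percentile) and 3 IRF4 peaks (67.0th) per 100 kb. *S1pr1* had 6.84 BATF peaks per 100 kb, at the 99.9th percentile. Most of the peaks lay away from promoters. Within 1 kb of a TSS of any protein-coding gene lay 4 of the 80 JunB peaks (5.00%, beside 6.00% of all JunB peaks) and 4 of the 64 IRF4 peaks (6.25%, interval 1.73 to 15.2, beside 16.7% of all IRF4 peaks). Of these, 3 JunB and 2 IRF4 peaks were that near to a start of a member gene, while the others, in the *Bach2* window, lay next to starts of *D130062J21Rik* (JunB, 536 bp) and *Casp8ap2* (IRF4, 330 bp and 82 bp).

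**Figure D1:**
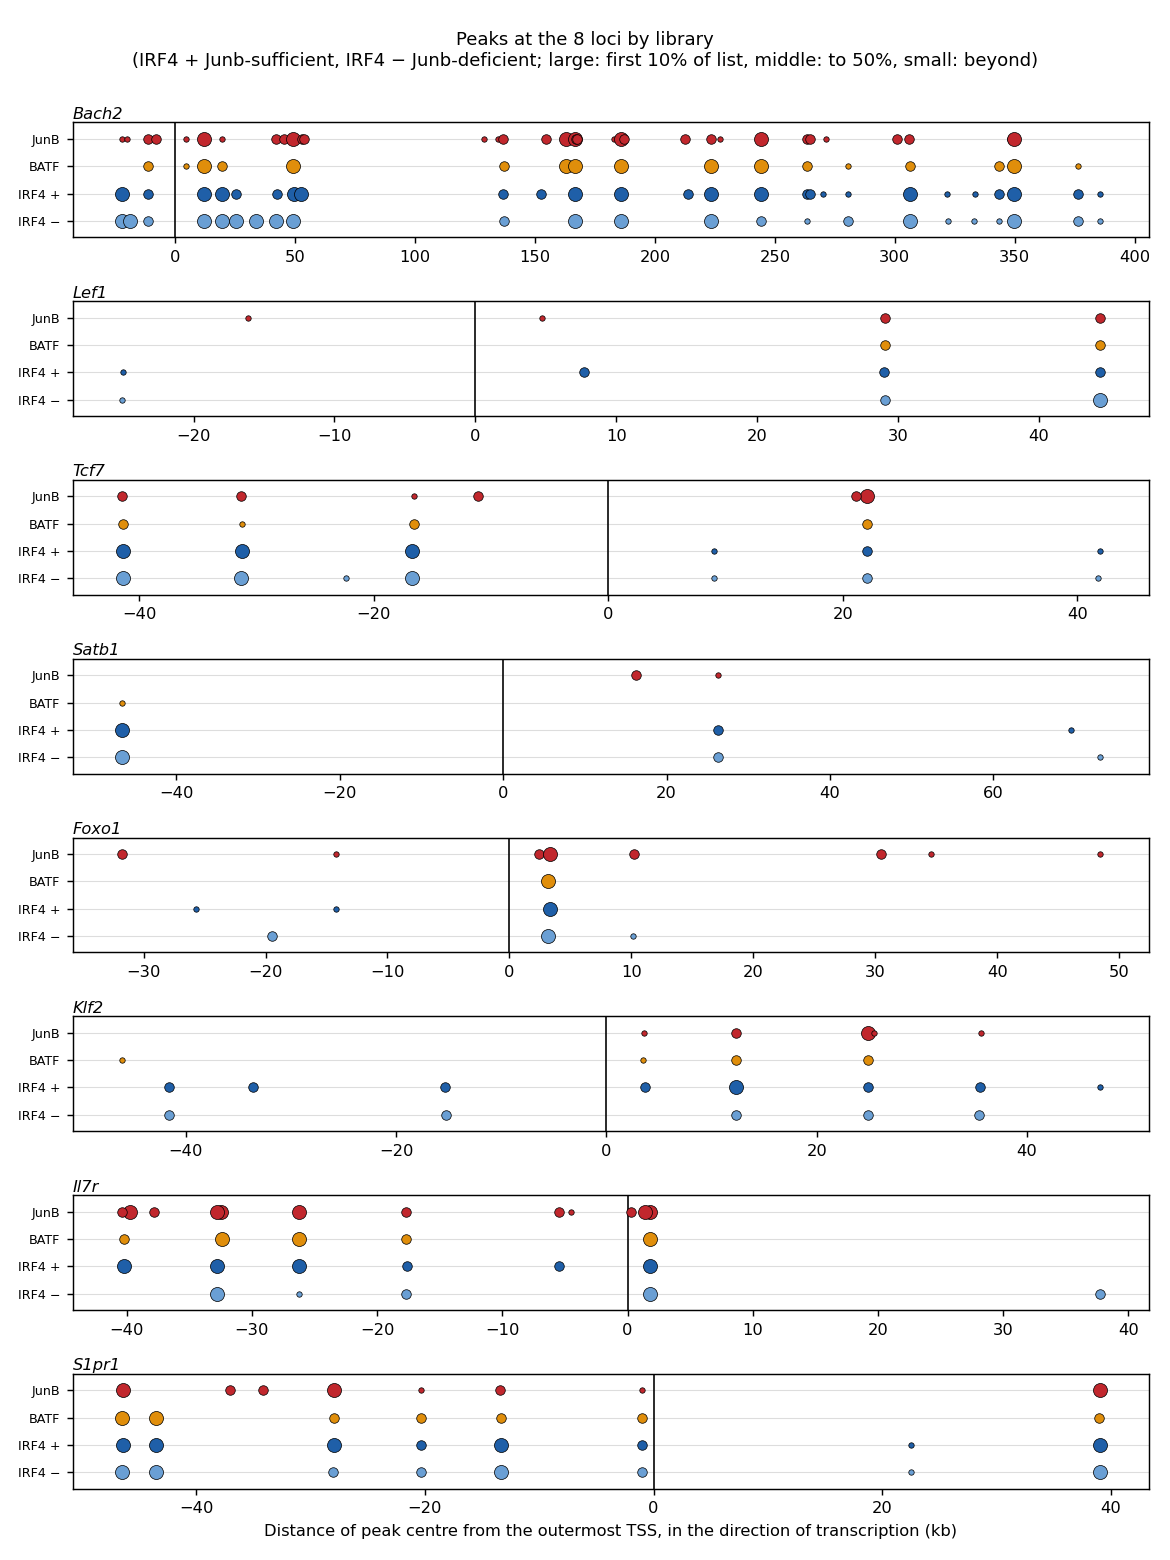
Peaks of the 4 libraries at the 8 loci, 1 panel per gene, by the distance of the peak centre from the outermost TSS in the direction of transcription (kb). Rows are JunB, BATF and IRF4 in Junb-sufficient cells (IRF4 +) and IRF4 in Junb-deficient cells (IRF4 −), and the point size gives the place in the list. Columns of points are shared sites, frequent at Bach2, Il7r and S1pr1, and the IRF4 point 40.2 kb upstream of Il7r has no partner in the Junb-deficient row.

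The lists carry no height, since the score of every peak is 1, but the order of the *Junb*-sufficient IRF4 list went with retention: among its top 10%, 95% of peaks had an overlapping peak in the *Junb*-deficient list, and among its last 10%, 32.1% had. The place in the list, counted from 1 at the top or as a percent of the list, is used as a stand-in for peak strength, which was not measured. These retention values cover the *Junb*-sufficient IRF4 list only. The words stronger and strongest refer to this place. IRF4 peaks of the 8 loci were concentrated at the top. Of 64 IRF4 peaks 25 (39.1%, interval 27.1 to 52.1) stood in the first 10% of the list, as did 25 of 57 IRF4 peaks of *Junb*-deficient cells (43.9%, interval 30.7 to 57.6), 14 of 41 BATF peaks (34.1%, interval 20.1 to 50.6) and 19 of 80 JunB peaks (23.8%, interval 14.9 to 34.6), where 10.0% of all peaks do by construction. Of the 25 IRF4 peaks, 11 were at *Bach2*, 5 at *S1pr1* and 4 at *Il7r*, while *Lef1* had none.

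Overlap between the factors was also frequent. Of the 80 JunB peaks 34 (42.5%, interval 31.5 to 54.1) overlapped both BATF and IRF4, beside 30.1% of all JunB peaks and 34.1% of those within 50 kb of a TSS of any protein-coding gene. BATF peaks overlapped JunB in 34 of 41 cases (82.9%, beside 70.7% over all) and IRF4 in 38 of 41 (92.7%, beside 88.6%). IRF4 peaks overlapped JunB in 40 of 64 cases (62.5%, interval 49.5 to 74.3), beside 40.3% of all IRF4 peaks. Overlap with JunB went with the place in the list. Of IRF4 peaks with an overlapping peak in the *Junb*-deficient list, 9539 lay at JunB and 10679 off it. Of those in the first 10% of the list, 2860 lay at JunB and 93 off it. That part held 25 of the 64 peaks. The overlap shares of this paragraph were not counted at like places, so they show no excess beyond the place in the list. At triple sites the JunB and IRF4 centres lay a median of 25.5 bp apart (n = 34), beside 24.0 bp over all 8921.

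The same measures at genes of the opposite program were close. At 10 effector genes named by the study (*Icos*, *Ctla4*, *Tigit*, *Klrg1*, *Gzmb*, *Prdm1*, *Maf*, *Il1rl1*, *Nt5e* and *Fgl2*) there were 81 JunB, 44 BATF and 63 IRF4 peaks, of which 32 JunB peaks (39.5%, interval 28.8 to 51.0) were at triple sites and 24 IRF4 peaks (38.1%, interval 26.1 to 51.2) in the first 10% of the list. At 15 other genes of naive and central T cells, among them *Ccr7*, *Foxp1* and *Id3*, 32 of 74 JunB peaks (43.2%, interval 31.8 to 55.3) were at triple sites and 23 of 81 IRF4 peaks (28.4%, interval 18.9 to 39.5) in the first 10%. These intervals overlap those of the 8 loci, and the differences were not tested.

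**Figure D2:**
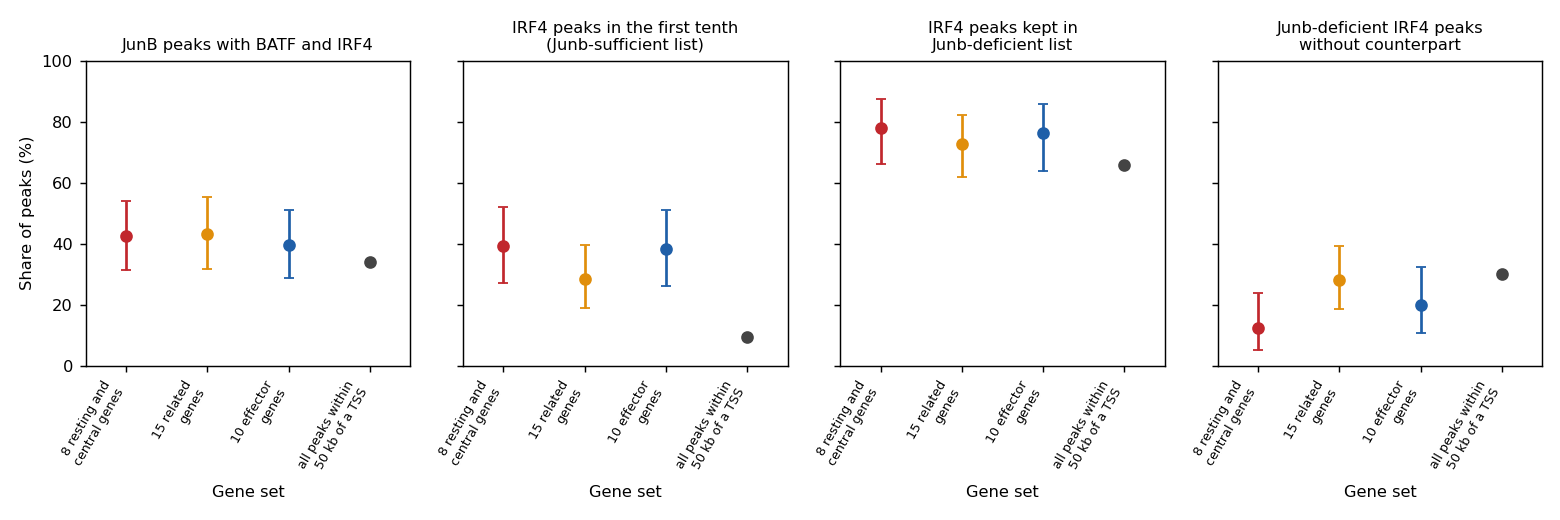
Share of peaks (%) at the 8 resting and central genes, at 15 related genes, at 10 effector genes and over all peaks within 50 kb of a TSS, for triple JunB peaks, IRF4 peaks in the first 10% of the Junb-sufficient list, IRF4 peaks kept in the Junb-deficient list and Junb-deficient IRF4 peaks without a Junb-sufficient counterpart. Points are shares and bars are exact binomial 95% intervals. The 8 genes had 39.1% of their IRF4 peaks in the first 10%, close to the 38.1% of the effector genes.

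To ask whether IRF4 binding at these loci was found without JunB, each IRF4 peak of *Junb*-sufficient cells was called kept when an IRF4 peak of *Junb*-deficient cells overlapped it by at least 1 bp, and missing otherwise. Of 64 IRF4 peaks 50 were kept (78.1%, interval 66.0 to 87.5), beside 65.0% of all IRF4 peaks. The higher share went with the place in the list. If the 64 peaks had been kept as often as all IRF4 peaks in the same one of 10 equal parts of the list, 51.5 would have been kept (80.4%), so retention at the 8 loci was about that of peaks at like places. At JunB peaks 34 of 40 were kept (85.0%, interval 70.2 to 94.3), beside 76.2% over all and 35.8 of 40 at like places. Away from JunB peaks 16 of 24 were kept (66.7%, interval 44.7 to 84.4), beside 57.5% over all and 15.6 of 24 at like places. Peaks with both JunB and BATF were kept in 31 of 33 cases (93.9%, interval 79.8 to 99.3), beside 83.6% over all, and peaks with JunB alone in 3 of 7 (42.9%, interval 9.90 to 81.6), beside 57.5%. The shares with and without BATF were not counted at like places, so the part of the place in the list in their difference is not known. The *Junb*-deficient list had slightly more tags used (17.9 M against 17.3 M) but fewer recorded tags in total (21127029 against 23914441). It also had a lower share of tags in peaks (11.15% against 12.76%) and fewer peaks. The part of depth and of enrichment in these shares was not tested.

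At the effector genes 48 of 63 IRF4 peaks were kept (76.2%, interval 63.8 to 86.0), beside 51.7 at like places. At the 15 related genes 59 of 81 were kept (72.8%, interval 61.8 to 82.1), beside 59.7 at like places. IRF4 peaks found only in *Junb*-deficient cells were 7 of 57 at the 8 loci (12.3%, interval 5.08 to 23.7), beside 30.4% of all peaks of that list, 12 of 60 at the effector genes (20.0%) and 23 of 82 at the related genes (28%). All peaks at like places in the *Junb*-deficient list would give 9.10 of 57 at the 8 loci (16%). The 7 peaks of the 8 loci were spread over 5 genes, 2 each at *Bach2* and *Foxo1* and 1 each at *Tcf7*, *Satb1* and *Il7r*, and 1 of them, at *Foxo1*, overlapped a JunB peak.

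**Figure D3:**
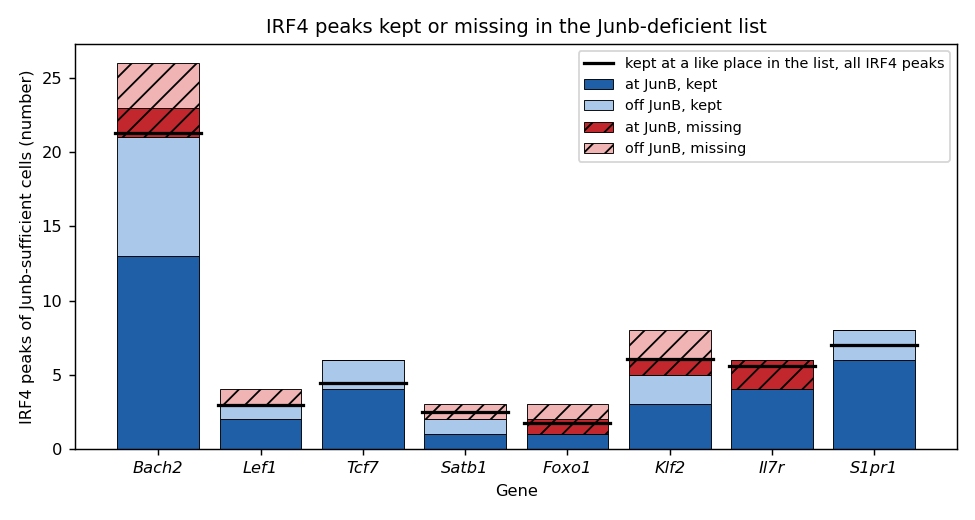
Number of IRF4 peaks of Junb-sufficient cells at each gene, stacked by whether they overlap a JunB peak and whether they are kept or missing (hatched) in the Junb-deficient list. Black lines mark the number that would be kept at the rate of all IRF4 peaks at like places in the list. All peaks were kept at Tcf7 (6 of 6) and S1pr1 (8 of 8), and the count at Bach2 (21 kept) lay at its line (21.3).

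*Bach2* (ENSMUSG00000040270.9, chr4:32325779-32673083, plus strand, 8 start sites) had the most peaks, 35 JunB, 17 BATF, 26 IRF4 and 23 IRF4 of *Junb*-deficient cells, over 366.5 kb of window. Distances here and for the other genes are from the outermost TSS in the direction of transcription. Of its JunB peaks 11 were at triple sites, 4 overlapped IRF4 alone, 2 BATF alone and 18 neither. The strongest IRF4 peak of all 8 loci lay 349.6 kb downstream, just past the end of the gene, at place 23 of the *Junb*-sufficient list and at place 161 of the *Junb*-deficient list. Next came the peak 12 kb downstream, at places 34 and 58. Both of these, at triple sites, stood in the first 1% of both lists. The triple sites 166.5 kb and 185.9 kb downstream, both in introns, stood at places 168 and 146 and were kept at places 542 and 254. The triple site 49.4 kb downstream, whose JunB peak stood at place 58 of the JunB list, stood higher in the *Junb*-deficient list, at 119 against 356. These 5 sites high in the lists were thus spread along the gene and its 3′ flank, and all 5 were kept.

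The other triple sites of *Bach2* were also kept. Their IRF4 peaks lay 11.2 kb upstream (place 4045, and 3164 in the *Junb*-deficient list), and 19.5 kb (2318 and 1022), 223.4 kb (1856 and 1422) and 306.2 kb (1275 and 1388) downstream. The places of these 4 differed by at most 3.9 percentage points between the lists. The exceptions were the sites 244.3 kb and 263.6 kb downstream. The IRF4 peak of the first stood lower, at place 4218 against 462 (14.5% against 1.49% of the list), and its JunB window held AP-1 3 times. Its *Junb*-deficient partner had its centre 243 bp away, so these may not be the same site. The second site, which lay 858 bp from an internal TSS and was the only site within 1 kb of a start of *Bach2* itself (JunB place 6747, BATF place 5027), stood at 18749 against 8678 (64.6% against 27.9%). A further IRF4 peak, 136.6 kb downstream, overlapped a JunB and a BATF peak that did not touch each other and was kept (4201 and 4217). Its *Junb*-deficient partner had its centre 302 bp away and overlapped BATF but not JunB, so the same doubt holds.

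Of the 26 IRF4 peaks at *Bach2* 5 were missing in *Junb*-deficient cells, and 21 were kept, beside 21.3 at like places. Of the 5, 2 overlapped JunB, both without BATF. The stronger lay in an intron 52.6 kb downstream at place 1330, within the first 4.28% of the list, and the nearest *Junb*-deficient IRF4 centre lay 3273 bp away. The weaker lay 264.8 kb downstream at place 9959, and a *Junb*-deficient peak centre lay 1269 bp away. Off JunB, the peak 343.5 kb downstream, at a BATF peak in the UTR of the gene, was kept but stood at 55.0% against 16.3% of the list. Of all kept peaks off JunB 2.83% went as far down or farther, and of those in the same one of 10 equal parts of the list 3.18%. In the other direction, the peaks 25.3 kb and 42.5 kb downstream, off JunB in *Junb*-sufficient cells, stood higher in *Junb*-deficient cells, at 8.50% against 23.2% and at 6.64% against 18.2%. The *Junb*-deficient partner of the second had its centre 484 bp away and overlapped a JunB peak (place 9303), so the 2 peaks may not be the same site.

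*Lef1* (ENSMUSG00000027985.8, chr3:130813389-130927274, plus strand) had 4 JunB, 2 BATF, 4 IRF4 and 3 *Junb*-deficient IRF4 peaks. Its 2 triple sites lay in introns 29.1 kb and 44.3 kb downstream. The IRF4 peak of the first stood at place 8145 and, in *Junb*-deficient cells, at 8797. That of the second stood higher, at 2821 against 6532. The 1 missing peak, 7.7 kb downstream at place 12655, overlapped no JunB peak. Thus both IRF4 peaks at JunB at *Lef1* were kept, neither of them in the first 10% of the *Junb*-sufficient list. The other 2 JunB peaks overlapped neither BATF nor IRF4.

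*Tcf7* (ENSMUSG00000000782.8, chr11:52065873-52096681, minus strand) had 6 JunB, 4 BATF, 6 IRF4 and 7 *Junb*-deficient IRF4 peaks, and none of the 6 was missing. Each BATF peak was at a triple site. The triple site 41.4 kb upstream stood at place 1411 of the IRF4 list and at 1429 of the *Junb*-deficient list, and its nearest TSS was that of *Vdac1*, a mitochondrial channel gene. The triple sites 31.2 kb and 16.7 kb upstream stood at 1901 and 3117 and were kept at 2572 and 2164. The triple site within the gene, 22.1 kb downstream, was the strongest of the 4 for JunB (place 741) and went from 4059 to 5918 in the IRF4 lists. The places of these 4 differed by at most 7.3 percentage points between the lists.

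*Satb1* (ENSMUSG00000023927.7, chr17:51875512-51972615, minus strand, 15 start sites) had the fewest peaks, 2 JunB, 1 BATF, 3 IRF4 and 3 *Junb*-deficient IRF4 peaks in 191.0 kb, and no triple site. The strongest IRF4 peak, 46.7 kb upstream, overlapped BATF and not JunB, and stood at place 2631 and, in *Junb*-deficient cells, at 964. The IRF4 peak in the intron 26.3 kb downstream overlapped a JunB peak near the end of the JunB list (place 25742) and stood at 5058 and 4632. The missing peak, 69.5 kb downstream, overlapped neither factor.

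*Foxo1* (ENSMUSG00000044167.5, chr3:52072259-52154031, plus strand) had 8 JunB peaks and 1 BATF, 3 IRF4 and 3 *Junb*-deficient IRF4 peaks, so 6 of its 8 JunB peaks stood without either partner. Its single triple site, in the intron 3.3 kb downstream, stood in the first 10% of each list, at place 1733 for JunB, 255 for BATF and 126 for IRF4, and at 189 in the *Junb*-deficient IRF4 list. The other IRF4 peaks, 14.2 kb and 25.7 kb upstream, stood at places 28194 and 24259 and were both missing. The first of these overlapped a JunB peak that was itself near the end of its list (place 29055).

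*Klf2* (ENSMUSG00000055148.7, chr8:74842932-74845555, plus strand) had 5 JunB, 4 BATF, 8 IRF4 and 5 *Junb*-deficient IRF4 peaks. The triple site nearest the gene, 3.7 kb downstream, was missing in *Junb*-deficient cells, from place 5534 (17.8% of the list), and the nearest *Junb*-deficient IRF4 centre lay 8633 bp away. Its JunB and BATF peaks were in the lower parts of their lists, at 72.9% and 61.1%. The triple sites 12.3 kb and 24.9 kb downstream were kept, from 2824 to 4790 and from 4726 to 2935, and the second lies in an intron of *Eps15l1*, an endocytosis gene. Off JunB, the peak 15.4 kb upstream stood at 13.7% against 40.9% of the list, and 2 of 4 peaks were missing. At *Klf2* 5 of 8 IRF4 peaks were thus kept, beside 6.04 at like places.

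*Il7r* (ENSMUSG00000003882.4, chr15:9435916-9459631, minus strand) had 12 JunB, 5 BATF, 6 IRF4 and 5 *Junb*-deficient IRF4 peaks. Each of its IRF4 peaks overlapped JunB, and 7 of the 12 JunB peaks belonged to 5 triple sites. The triple site in the intron 1.8 kb downstream held 2 neighbouring JunB peaks and went from place 614 to 1265 of the IRF4 lists. The site 32.8 kb upstream, also with 2 JunB peaks, went from 916 to 2123, and the site 17.6 kb upstream from 4458 to 10203. The site 26.2 kb upstream was the strongest for JunB after 1 *Bach2* site (place 113 of the JunB list) and its IRF4 peak stood at 16647 against 2543, that is at 57.3% against 8.18% of the list. Of all kept peaks at JunB, 3.76% stood as much lower or more, and of those in the first 10% of the *Junb*-sufficient list 1.43%. This was the largest such difference among the 50 kept peaks of the 8 loci, picked out for that reason.

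Both remaining IRF4 peaks of *Il7r* were missing. That at the triple site 40.2 kb upstream, whose sequence is printed above, stood at place 553 (1.78% of the list), the strongest missing IRF4 peak of the 8 loci, and the nearest *Junb*-deficient IRF4 centre lay 7401 bp away. Its BATF peak stood at place 1565 and its JunB peak at 4192. The other, 5.5 kb upstream at place 3692, overlapped JunB without BATF. Each of the 6 IRF4 peaks of *Il7r* was therefore missing or lower in *Junb*-deficient cells, with 4 kept beside 5.55 at like places. This was noticed after the values were seen. Of 2242 protein-coding genes with at least 6 IRF4 peaks, 204 (9.10%) showed the same. The DNA at the missing *Il7r* peak 5.5 kb upstream and at the stronger missing *Bach2* peak, 100 bases to either side of the IRF4 centre, is printed for comparison with the triple sites.
*Il7r*, missing, chr15:9465077-9465277: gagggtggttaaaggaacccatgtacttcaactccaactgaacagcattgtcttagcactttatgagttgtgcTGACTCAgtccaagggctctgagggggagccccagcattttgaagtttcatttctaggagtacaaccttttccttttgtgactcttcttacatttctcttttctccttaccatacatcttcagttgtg
*Bach2*, missing, chr4:32378299-32378499: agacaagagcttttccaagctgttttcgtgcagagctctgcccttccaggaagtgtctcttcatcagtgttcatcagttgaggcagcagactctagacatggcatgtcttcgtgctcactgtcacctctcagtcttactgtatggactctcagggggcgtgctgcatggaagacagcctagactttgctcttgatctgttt
The *Il7r* window held AP-1, and the *Bach2* window none of the searched letters. In the counts that follow, windows are centred on the IRF4 peak. The missing *Il7r* peak 40.2 kb upstream thus counts as without AP-1, although the JunB-centred window of that site, printed above, held the motif. Over the 6 missing IRF4 peaks at JunB, 2 windows held AP-1 (33.3%, interval 4.33 to 77.7), beside 15 of the 34 kept ones (44.1%, interval 27.2 to 62.1). None of the 6 held an AICE match, beside 3 of 34. Over all IRF4 peaks at JunB the order was the other way for AP-1, which was found in 49.0% of 2979 missing and 35.2% of 9539 kept peaks, and AICE matches were found in 3.93% and 4.61%. With 6 missing peaks, the member counts do not show in which direction these loci differ.

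*S1pr1* (ENSMUSG00000045092.6, chr3:115413351-115417973, minus strand) had 8 JunB, 7 BATF, 8 IRF4 and 8 *Junb*-deficient IRF4 peaks, and all 8 were kept, beside 6.98 at like places. Of the 2242 genes with at least 6 IRF4 peaks 178 (7.94%) kept all, *Tcf7* and *S1pr1* among them. The strongest site, 46.4 kb upstream, went from place 157 to 698, and the site 43.5 kb upstream, which had BATF and IRF4 but no JunB peak, from 681 to 597. The triple sites 13.3 kb, 27.9 kb and 20.3 kb upstream all stood lower without JunB, going from 648 to 1476, from 2032 to 6075 and from 4575 to 9876. That 39.0 kb downstream, with the AICE match, went from 2384 to 2787. The triple site next to the promoter, 985 bp upstream of the TSS by its JunB centre, stood at place 17905 for JunB and 5302 for BATF, and slightly higher for IRF4 in *Junb*-deficient cells, at 3692 against 4480. All 6 triple sites of the gene were thus kept, 5 of them at lower places.

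Over the 50 kept IRF4 peaks of the 8 loci, 28 stood lower in the *Junb*-deficient list as a percent of the list (56.0%, interval 41.3 to 70.0), beside 51.4% of all kept peaks. The median change of place was 0.39 percentage points towards the end of the list (range -27.2 to 49.2), beside 0.30 over all kept peaks, and at JunB peaks 0.85 (n = 34), beside 2.20 over all. The 3 largest differences towards the end of the list were 49.2 points at *Il7r*, 26.2 kb upstream, and 38.7 and 36.7 points at *Bach2*, 343.5 kb and 263.6 kb downstream.

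**Figure D4:**
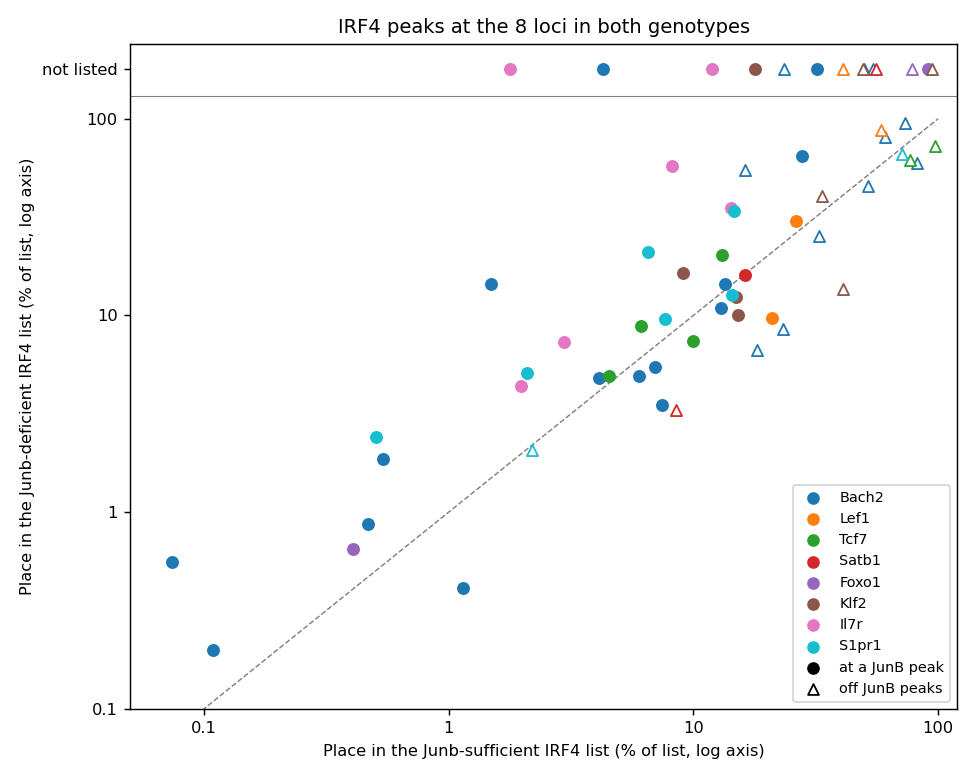
Place of each of the 64 IRF4 peaks of Junb-sufficient cells (percent of the list, log axis) against the place of its overlapping peak in the Junb-deficient list (percent of the list, log axis), coloured by gene, filled circles at and open triangles off JunB peaks. The dashed line marks equal places, and the 14 missing peaks stand on the upper line. The 6 Il7r peaks lie above the dashed line or on the line of missing peaks.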

How the data were processed

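Peak positions from JunB, BATF and IRF4 ChIP-seq were taken from 4 lists, 1 per library. The authors fixed cells in 1% formaldehyde, digested chromatin with MNase, aligned reads to mm9 with Bowtie2 and ran HOMER on single libraries to find peaks, with no control library in the recorded command. HOMER 4.8 is given in the submitters' processing notes, while the study's reporting summary names another version, run with default settings. Peaks passed an FDR of 0.001 and at least 4-fold enrichment over the surrounding 10 kb, with 1 tag counted per bp. The deposited score is 1 in every line and carries no information. Peaks were called on 16 M to 17.9 M tags (recorded totals 21127029 to 27399986 tags) and were 151 bp wide for JunB and 605 to 613 bp for the others.

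BED starts were converted to positions counted from 1, and TSSs were taken from GENCODE vM1 (NCBIM37). An overlap of 1 bp or more made 2 peaks shared. Place in the list served as a proxy for strength, and each list was divided into 10 parts to count retention at like places. JunB peaks of equal strength follow each other by position, since 12 pairs of JunB peaks of the same locus stood at consecutive places. All 8 genes are named. Every peak within 1 kb of a TSS of a member gene, every triple site and every missing IRF4 peak at JunB was described. Members and comparison lists were chosen with earlier results of these data known. A listed comparison gene is not reported here. Scripts were tested on simulated data and run with Python 3.11.15, NumPy 2.4.6, SciPy 1.17.1 and matplotlib 3.10.9. Alternatives were the window, start sites, overlap rule, list length, library names and left-out genes.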

Additional observations from a re-analysis of the deposited data

How the results depend on the processing

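The share of JunB peaks at triple sites stayed between 32.5% and 51.1% and that of kept IRF4 peaks between 65.6% and 87.8% over the alternatives run. The kept share moved beyond its interval when centres at most 100 bp apart were required (65.6%) and when the BATF and IRF4 lists were exchanged, as the antibody field of the labels has them (87.8%, 36 of 41 peaks), an exchange under which it compares different antibodies. Peak counts moved with the window: within 25 kb there were 45 JunB, 23 BATF, 35 IRF4 and 34 *Junb*-deficient IRF4 peaks, and within 100 kb 99 IRF4 and 87 *Junb*-deficient IRF4 peaks. Without *Bach2*, an alternative chosen after seeing the data, as were leaving out *Il7r*, the outermost start site and the first part of 1 list, the counts were 45, 24, 38 and 34, while the triple share was 51.1% and the kept share 76.3%. No paired analysis was possible because each condition had 1 library. For the same reason no difference between genotypes was tested. Places in lists are no measure of read depth at a site, a missing peak can lie just under the calling threshold, and a peak near a gene was not shown to act on it.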

Other observations

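Some peaks assigned to the 8 genes lay nearer to the start of another gene: 2 of 80 JunB peaks, 4 of 41 BATF peaks, 8 of 64 IRF4 peaks and 6 of 57 *Junb*-deficient IRF4 peaks. The other genes were *Vdac1* and *Skp1a* beside *Tcf7*, *Ap1m1*, *Eps15l1* and *Gm10282* beside *Klf2*, and *Casp8ap2* and *D130062J21Rik* beside *Bach2*. BATF peaks at the loci that overlapped IRF4 but not JunB were few, and all 5 IRF4 peaks at such sites were kept in *Junb*-deficient cells (interval 47.8 to 100), beside 74.2% of all IRF4 peaks of this kind. Retention at like places was not counted for this class.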
